A study of Caenorhabditis elegans with 51 samples.

Results

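The genes described here are 10 components of the Wnt and beta-catenin asymmetry pathway of *Caenorhabditis elegans*. They were chosen by name, with earlier results of these data known. They are the ligands *mom-2*, *cwn-1* and *cwn-2*, the receptor *mom-5* and the scaffold *apr-1*. The others are the beta-catenins *wrm-1*, *sys-1* and *bar-1*, the kinase *lit-1* and the transcription factor *pop-1*. The deposited tables list 31383 genes, and each of the 10 was among them. RNA was measured in cells dissected by hand from single embryos of about the 100 cell stage, in 3 dissection series that each used a strain of its own, and Wnt signalling itself was not perturbed. MS+ held the MS descendants and MS- the rest of the same embryo (pCEH-51::mNG strain, 7 embryos). D+ held the D descendants and D- the rest (pFKH-2::mNG strain, 7 embryos). C-in held Cxp descendants, which internalize and give mostly body wall muscle, C-out held Cxa descendants, which stay outside and give mostly epidermis, and C- held the rest (pR02D3.1::mKate2;pHLH-1::mNG strain, 5 embryos). Each fluorescent protein was driven by the promoter of the gene named, so cells were taken by that promoter's activity. Within a series, equal replicate numbers mark one embryo, and 3 further embryos that the submitters rejected were left out, which left 43 libraries from 19 embryos.

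In this pathway a Wnt ligand binds a Frizzled receptor and polarises a dividing cell, so that its anterior and posterior daughters take different fates. In the posterior daughter, WRM-1 with the kinase LIT-1 drives part of the TCF factor POP-1 out of the nucleus, while SYS-1 accumulates and turns the remaining POP-1 into an activator. In the early embryo the pathway is known for separating the gut precursor E from its sister MS, and it is used again in later divisions along the anterior-posterior axis. Much of it is regulated by protein location and stability, and only transcripts were measured here.

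Libraries held between 416394 and 3054633 counts on genes (median 1853024). Values are RPKM (reads per kilobase of gene, scaled to the library's total) as the submitters computed them, and 25 RPKM is the detection limit that the study used. Dissected cells gave fewer detected genes than the rest of the embryo: the median number of genes over 25 RPKM was 2811 in MS+ against 5116 in MS-, and 2054 in D+ against 4280 in D-, while the C series had 2316 (C-in), 2672 (C-out) and 4969 (C-). The median number of the 10 genes over that limit was 3 or 4 in each dissected group and 7 in MS-, D- and C-. In a dissected group, fewer cells that carry a transcript and less of it per cell cannot be told apart, and libraries from a few cells can miss a transcript by chance. Several dissected libraries carried markers that go against their labels. The D marker *fkh-2* was at 2.35 RPKM in D+ replicate 8, against 93.9 to 1749 RPKM in the other D+ libraries, and the summed epidermis markers of D+ replicate 8 were at 1225 RPKM. D- replicate 8, from the same embryo, had 2272 genes over 25 RPKM, the fewest of D-. It also had the lowest D- sums of AB markers (11.6 RPKM) and gut markers (30.7 RPKM). In C-in replicate 1 *fkh-2* was at 419.6 RPKM, against 0.50 to 4.74 RPKM in the other C-in libraries. This marker was not confined to D+, as it was at 346.2 and 230.4 RPKM in MS+ replicates 1 and 3. C-in replicate 1 also had the highest body wall muscle sum of C-in (4743 RPKM). Its posterior C and D markers summed to 529.9 RPKM (6.85 to 925.4 RPKM over C-in). C-in replicate 4 held 955.6 RPKM of summed epidermis markers, against 9.33 to 38.8 RPKM in the other C-in libraries, and D+ replicate 4 held 959.7 RPKM of germ line markers, against at most 3.71 RPKM in the other D+ libraries. C-out replicate 1 had 5330 genes over 25 RPKM and 702 RPKM of summed gut markers, against 7.43 to 204 RPKM of these in the other C-out libraries. Summed body wall muscle markers lay between 1258 and 4743 RPKM in all 5 C-in libraries and between 18.5 and 358 RPKM in C-out, and the MS lineage markers summed to 271 to 2451 RPKM in the 7 MS+ libraries. Other cells' markers were also high in some MS+ libraries, with summed gut markers of 2707 and 2964 RPKM in replicates 3 and 4 and at most 73.6 RPKM in the others. Between TMM and median-ratio scaling the median log2 change of all tested genes moved between 0.33 and 0.92 in MS+ against MS-, 0.53 and 1.42 in D+ against D-, 0.69 and 1.40 in C-in against C- and -0.08 and 0.77 in C-out against C-, so changes that passed a count test are also given relative to it.

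Over the 7 groups, *cwn-1* had the widest range of group means, 4.17 on the log2(RPKM + 25) scale, and *mom-2* followed with 2.71, *wrm-1* with 2.37 and *cwn-2* with 2.0. In one edgeR quasi-likelihood test of any difference among the 7 groups, 33.1% of 6840 genes passed an adjusted p of 0.05, and 3 of the 8 tested members did: *cwn-1* (adjusted p = 2.27e-05), *mom-5* (adjusted p = 0.0158) and *mom-2* (adjusted p = 0.0495). *lit-1* (adjusted p = 0.0532), *cwn-2*, *wrm-1*, *sys-1* and *apr-1* did not pass. *lit-1* passed under median-ratio scaling (adjusted p = 0.00234) and in 7 of the 19 fits that left out 1 embryo. *pop-1* and *bar-1* were under the filter and passed without one (adjusted p = 0.0174 and 0.00135). Series differ in strain as well as in lineage, so a strain and its cells cannot be told apart in this test. *cwn-1* and *mom-5* passed with each embryo left out in turn, and *mom-2* did not pass without any one of 10 of the 19 embryos (MS 1, 2, 4, 5, 6 and 7, D 4 and C 2, 4 and 6).

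**Figure D1:**
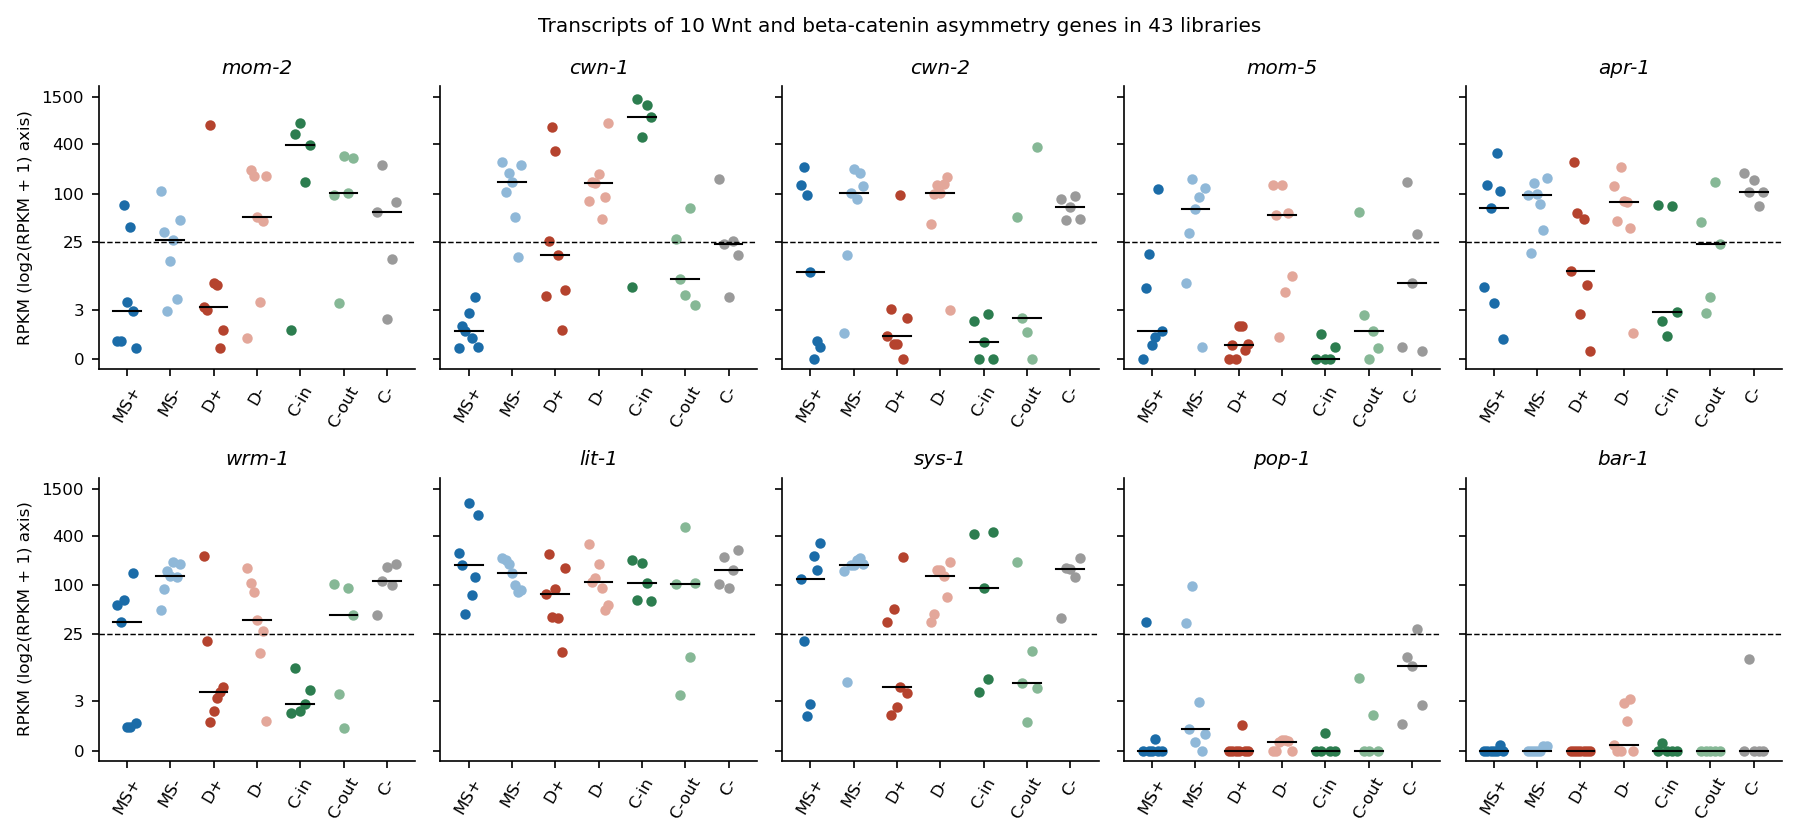
RPKM of the 10 genes (vertical axis, drawn as log2(RPKM + 1)) in each of 43 libraries, by group. Each point is 1 library, the short bars are group medians and the dashed line is the detection limit of 25 RPKM. *cwn-1* stood highest in C-in and lowest in MS+, *lit-1* was over the limit in 40 of 43 libraries, and *bar-1* in 0 of 43.

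*cwn-1*, a Wnt ligand, was the member that separated the groups most. In C-in it was at 6.45, 1430.0, 485.5, 1202 and 856.6 RPKM (replicates 1, 2, 4, 5 and 6). In C-out it was at 27.6, 8.34, 5.01, 67.8 and 3.54 RPKM, and in C- at 150.2, 23.6, 4.70, 26.4 and 17.3 RPKM. In 4 of 5 embryos C-in was therefore the highest of the 3 libraries by a wide margin, and in embryo 1, whose C-in library carried the D marker, it was the lowest. The count test gave 5.31 ± 1.25 on the log2 scale for C-in against C-out (SE, n = 5 per group, edgeR quasi-likelihood test, adjusted p = 0.0123), higher in 4 of 5 embryos. This was 1 of 3 members tested in that comparison, in which 5.66% of 2208 genes passed. Against C-, it was 4.93 ± 1.19 higher (edgeR, adjusted p = 0.0251), again in 4 of 5 embryos. In C-in against C-, 6.35% of 3572 genes passed, 56 higher and 171 lower, while under median-ratio scaling 141 were higher and 109 lower. Relative to the median of all tested genes, *cwn-1* lay 5.06 (TMM) and 5.10 (median-ratio) above it against C-out and 4.24 and 4.42 above it against C-. Both comparisons use the same C-in libraries.

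The call against C-out was lost with limma on log2(RPKM + 1) (adjusted p = 0.0555), without embryo 2 (4.77, adjusted p = 0.0529), without embryo 6 (4.96, adjusted p = 0.0755) and with the embryo as a block (5.49, adjusted p = 0.0629), with adjusted p between 1.82e-05 and 0.0755 over 13 alternatives. The call against C- held with the block (5.81, adjusted p = 0.0408) and was lost with limma on log2(RPKM + 1), in the 7-group fit and without embryo 2, 4, 5 or 6 (adjusted p up to 0.11, over alternatives from 2.3e-05). Embryo 4 is the one whose C-in library held epidermis markers, and without it the change against C- was 4.78 (adjusted p = 0.0755) and that against C-out 5.05 (adjusted p = 0.0382). Without embryo 1 the changes were 5.83 against C-out (adjusted p = 0.00545) and 6.30 against C- (adjusted p = 0.0171). Embryo 1 held the lowest *cwn-1* value of C-in and was singled out partly by it. These adjusted p-values are therefore descriptions and no support for a difference.

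The MS series was the reverse. *cwn-1* had 0.37, 1.22 and 4.61 RPKM in MS+ (lowest, median and highest of 7), against 16.3, 138 and 245 RPKM in MS-. The groups did not overlap, and MS+ was lower in 7 of 7 embryos. At most 14 reads of *cwn-1* were counted in any MS+ library. The gene had too few libraries over 25 RPKM for the main count test. The exact permutation test gave a difference of -2.36 in mean log2(RPKM + 25) (two-sided p = 0.000583, n = 7 per group), the smallest p that 7 against 7 libraries allow. Among 6840 genes, 1.92% had every MS+ library below every MS- library. In the count fit over all 7 groups *cwn-1* fell by 5.50 ± 1.21 on the log2 scale (SE, edgeR, adjusted p = 0.0206). That fit called 187 of 6840 genes in MS+ against MS-, 162 of them lower, and 1 of 8 members. *cwn-1* also passed in the count tests without embryo 6 (adjusted p = 0.0121) and without a filter (adjusted p = 0.0281). Embryo 6 held the lowest MS- and the highest MS+ value. Without it the gene passed the filter only through MS-, so the first of these adjusted p-values is a description and no added support.

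In the D series the libraries scattered. *cwn-1* had 1.23, 17.2 and 658.5 RPKM in D+, against 49.3, 134.4 and 722.6 RPKM in D-, and D+ was lower in 5 of 7 embryos. The high D+ values were those of replicates 3 and 4 (658.5 and 329.9 RPKM). The change was -0.15 ± 1.15 on the log2 scale (SE, edgeR, adjusted p = 0.982). With each embryo left out it ran from -1.59 (without embryo 3, adjusted p = 0.894) to 1.06 (without embryo 8, adjusted p = 0.829). The highest D- value was that of replicate 8, the D- library with the fewest detected genes and the lowest AB and gut marker sums. D+ replicate 3 also held 805.7 RPKM of summed AB markers and 695.4 RPKM of *mom-2*, D+ replicate 4 was the one with germ line markers, and the part of other cells in these values was not tested.

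The changes of *cwn-1* in the series differed from each other. In the 7-group fit, MS+ against MS- less D+ against D- was -5.54 ± 1.5 on the log2 scale (SE, edgeR, adjusted p = 0.0324, with 2.69% of 6840 genes past the threshold). It did not pass without MS embryo 1, 2, 3 or 7 or D embryo 3 or 4 (adjusted p up to 0.124), and without D embryo 8 it was -7.08 (adjusted p = 0.00965). D embryo 8 held the highest D- value of *cwn-1*, so the last adjusted p is a description. C-in against C- less MS+ against MS- was 10.41 ± 1.88 (adjusted p = 0.00284, with 0.57% of genes past it), and it did not pass without C embryo 2 (9.76, adjusted p = 0.0584). C-in against C- less D+ against D- was 4.88 ± 1.61 and did not pass (adjusted p = 0.0874, with 0.0146% of genes past it). Ordered by group mean, *cwn-1* ran C-in, D-, MS-, D+, C-, C-out, MS+. Of the 6 steps between neighbours in that order, the last one, from C-out to MS+, was 0.68 on the log2(RPKM + 25) scale (exact permutation p = 0.00505, not adjusted), beside SDs of 0.72 in C-out and 0.08 in MS+. The other steps had exact permutation p between 0.136 and 0.649.

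**Figure D2:**
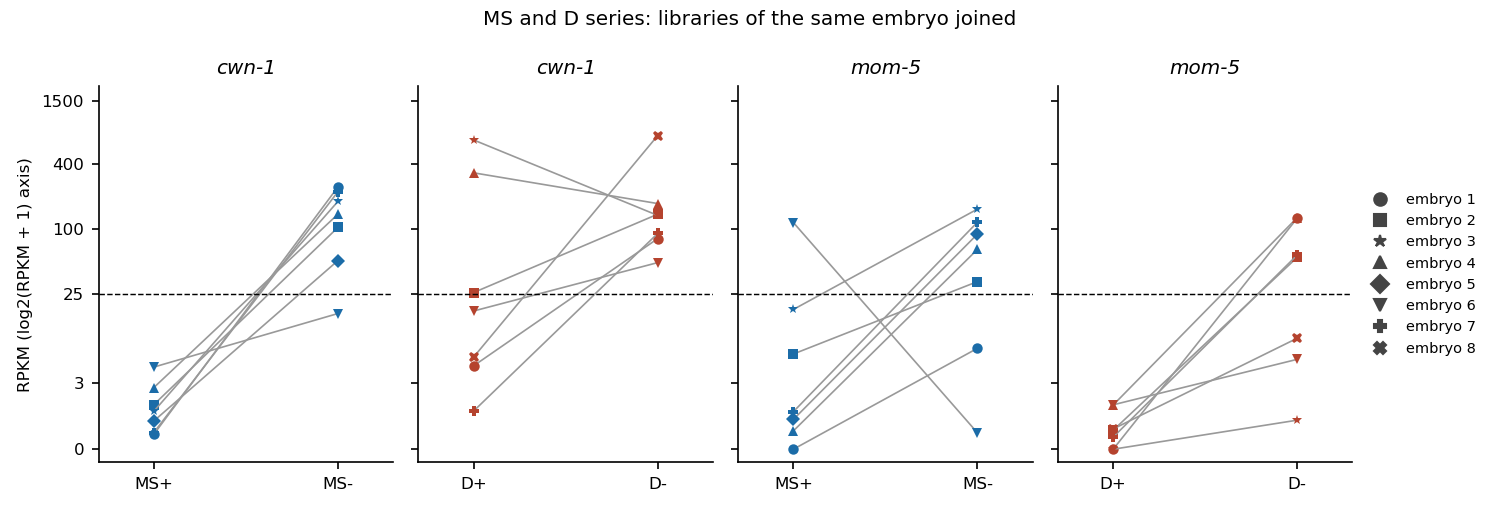
*cwn-1* and *mom-5* in the MS and D series, as RPKM on a log2(RPKM + 1) axis. Lines join the dissected library (left) and the rest of the same embryo (right), symbols mark the embryo, and the dashed line is 25 RPKM. *cwn-1* was lower in MS+ than in MS- in 7 of 7 embryos, and *mom-5* was lower in D+ than in D- in 7 of 7.

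*mom-2*, the ligand known for the signal from P2 to EMS in the early embryo, was also highest in C-in. It was at 1.27, 538.7, 720.0, 138.6 and 395.5 RPKM in C-in, at 96.9, 3.80, 290.0, 102.9 and 276.7 RPKM in C-out and at 59.9, 224.0, 2.11, 15.2 and 79.6 RPKM in C-. C-in replicate 1 was again the low one, and without it C-in lay above C-out in all 4 remaining embryos. That library was singled out partly by its values, so this is a description and no support for a difference. The change was 1.18 ± 1.2 for C-in against C-out (SE, edgeR, adjusted p = 0.772) and 2.84 ± 1.28 for C-in against C- (edgeR, adjusted p = 0.252, DESeq2 adjusted p = 0.00978, up to 0.475 over alternatives). C-out, at 1.32 ± 1.15 against C-, did not pass either (edgeR, adjusted p = 0.695). In the other series it was 0.36, 2.81 and 73.2 RPKM in MS+ (lowest, median and highest), against 2.79, 26.5 and 108 RPKM in MS-. It was 0.35, 3.25 and 695.4 RPKM in D+, against 0.80, 51.4 and 195.8 RPKM in D-, and D+ replicate 3 held 96.9% of the D+ sum. Both pairs of groups overlapped and neither differed beyond the spread of the libraries (exact permutation p = 0.259 and p = 0.325, n = 7 per group). Leaving out MS embryo 3, whose MS+ library was the highest of its group, gave -0.89 in MS (exact permutation p = 0.0368). Leaving out D embryo 3, a different embryo whose D+ library was the highest, gave -1.38 in D (exact permutation p = 0.039). These embryos were picked by their values, so these p-values are descriptions and no support for a difference. With all embryos kept, the change in D was positive in count fits (0.72 without a filter). Of the neighbours in the order of its 7 group means (C-in, C-out, D-, C-, MS-, D+, MS+), none differed beyond that spread, with exact permutation p between 0.374 and 0.865.

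*cwn-2*, the third ligand, went the other way from *cwn-1* in the C series. It was at 1.94, 0, 0.60, 2.50 and 0 RPKM in C-in, against 85.8, 47.8, 68.6, 94.4 and 49.7 RPKM in C-. Every C-in library lay below every C- library, as was so for 10.4% of 6840 genes, and 9 reads were counted in the 5 C-in libraries together. The change was -5.38 ± 1.32 on the log2 scale (SE, n = 5 per group, edgeR, adjusted p = 0.0258), lower in 5 of 5 embryos. It was 6.07 below the median of all tested genes under TMM scaling and 6.22 below it under median-ratio scaling. With 5 of 5 C- and 0 of 5 C-in libraries over 25 RPKM, *cwn-2* passed the filter only through C-. Its direction was thus fixed by the filter, and the adjusted p is a description. The call was lost without embryo 4 (-5.26, adjusted p = 0.086), without a filter (-5.29, adjusted p = 0.129), in the 7-group fit (-5.41, adjusted p = 0.0873) and with the embryo as a block (-6.07, adjusted p = 0.0739, over alternatives from 0.000198 to 0.129). C-out was at 52.5, 2.17, 1.13, 0 and 370.2 RPKM, so 2 of its libraries stood with C- and 3 with C-in. C-in against C-out was under the filter for the count test (exact permutation p = 0.198).

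*cwn-2* was also low in D+, with 0, 0.93 and 97.0 RPKM (lowest, median and highest), against 2.98, 102.3 and 159 RPKM in D-. D+ was lower in 7 of 7 embryos, and the groups overlapped through D+ replicate 6 and D- replicate 8. The count test did not pass (-2.01 ± 1.31, SE, edgeR, adjusted p = 0.793). In MS+ the libraries fell into 3 high ones (129.9, 215 and 96.0 RPKM in replicates 1 to 3) and 4 at 10.3 RPKM or below, against 1.07, 103 and 201 RPKM in MS- (lowest, median and highest). MS+ and MS- did not differ in the count test (-0.47 ± 1.25, SE, edgeR, adjusted p = 0.952). *cwn-2* overlaps *W01B6.3* on the opposite strand, and whether counting used the strand is not given in the sources used here, but *W01B6.3* was at most 0.86 RPKM in any library.

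*mom-5*, a Frizzled receptor and the partner of MOM-2 in the early embryo, was almost absent from D+ and C-in. It had 0, 0.49 and 1.54 RPKM in D+ (lowest, median and highest), against 0.84, 55.2 and 128.4 RPKM in D-. Only 12 reads were counted in the 7 D+ libraries together. D+ was lower in 7 of 7 embryos, and the groups overlapped only through D- replicate 3, at 0.84 RPKM. Too few libraries were over 25 RPKM for the main count test in this series. The difference was -1.31 in mean log2(RPKM + 25) (exact permutation test, two-sided p = 0.00175, n = 7 per group). Without embryo 8 it was -1.46 (exact permutation p = 0.00649). In the count fit over all 7 groups *mom-5* fell by 5.67 ± 1.70 in D+ (SE, edgeR, adjusted p = 0.0372), and without a filter on low values the call was not made (adjusted p = 0.068). That 7-group fit called 485 of 6840 genes in D+ against D-, 402 of them lower, and 1 of 8 members.

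In C-in *mom-5* was at 0, 1.02, 0, 0 and 0.42 RPKM, against 60.1, 2.39, 0, 1.21 and 0.36 RPKM in C-out and 0.40, 138.6, 7.44, 32.1 and 0.26 RPKM in C-. A count of 0 in a C-in library allows up to between 1.02 and 1.38 RPKM of this gene, for counting error only. C-, too, was under 25 RPKM in 3 of 5 libraries, and C-in did not differ from C- beyond the spread (exact permutation p = 0.0714) or from C-out (exact permutation p = 0.127). In MS+ it was at 0, 1.20 and 115.4 RPKM, against 0.41, 65.4 and 153.6 RPKM in MS-, lower in 6 of 7 embryos (exact permutation p = 0.0728). The exception was embryo 6, with 115.4 RPKM in MS+ and 0.41 RPKM in MS-, and without it the difference was -1.62 (exact permutation p = 0.00433). Embryo 6 was picked by its *mom-5* values, so this p is a description and no support for a difference. The order of group means was MS-, D-, C-, MS+, C-out, D+, C-in, with exact permutation p between 0.21 and 0.763 for neighbours. *mom-5* overlaps *tsp-7* on the opposite strand, and *tsp-7* ranged up to 196 RPKM in MS- and 163.6 RPKM in D+, where *mom-5* was at most 1.54 RPKM.

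**Figure D3:**
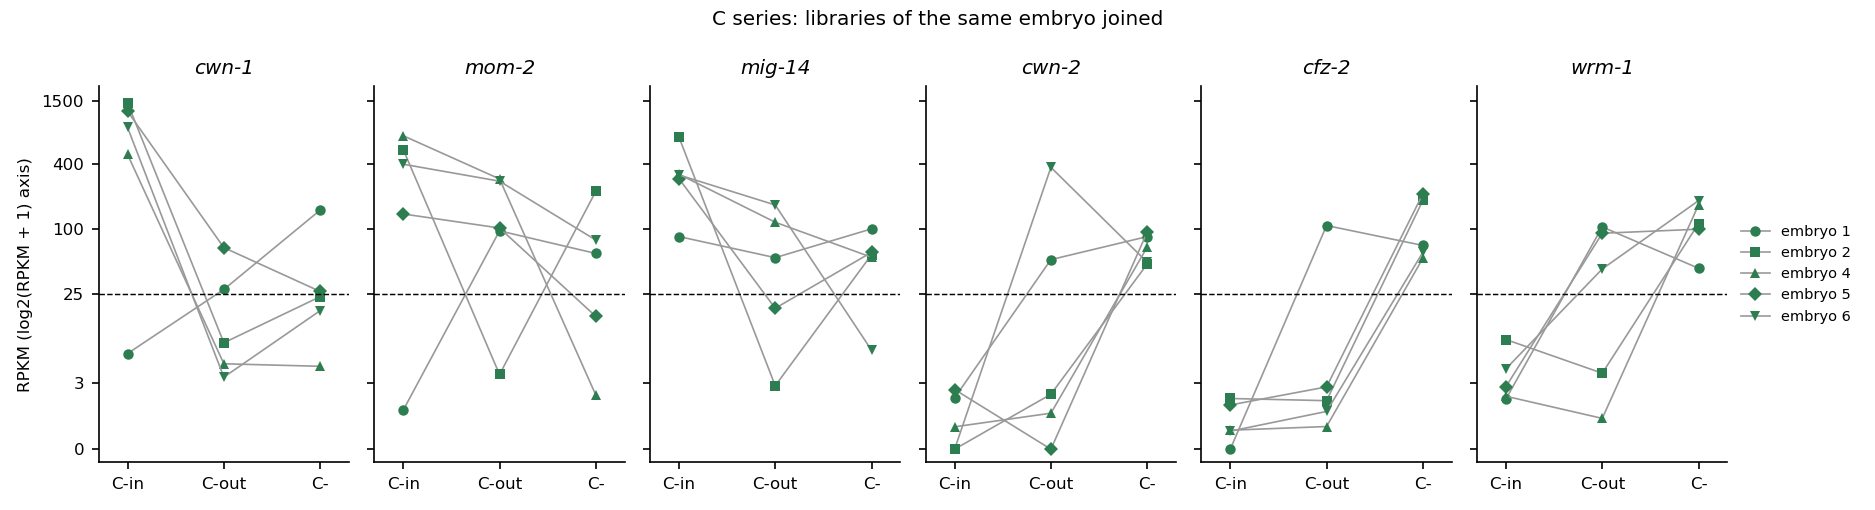
RPKM of *cwn-1*, *mom-2*, *mig-14*, *cwn-2*, *cfz-2* and *wrm-1* in the C series, on a log2(RPKM + 1) axis. Lines join C-in, C-out and C- of the same embryo, symbols mark the embryo, and the dashed line is 25 RPKM. *cwn-1* was highest in C-in in 4 of 5 embryos, and *cwn-2*, *cfz-2* and *wrm-1* were lower in C-in than in C- in 5 of 5.

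Of the members that act inside the cell, *wrm-1*, the beta-catenin that works with LIT-1, was the one that fell in C-in by the count test. It was at 1.87, 9.00, 2.04, 2.72 and 4.41 RPKM in C-in, against 43.6, 113, 168, 100.35 and 183.6 RPKM in C-. The groups did not overlap, as was so in this direction for 10.4% of 6840 genes. The change was -4.20 ± 1.04 on the log2 scale (SE, n = 5 per group, edgeR, adjusted p = 0.0267), lower in 5 of 5 embryos, and 4.89 (TMM) or 4.61 (median-ratio) below the median of all tested genes. With 5 of 5 C- and 0 of 5 C-in libraries over 25 RPKM, *wrm-1* also passed the filter only through C-. The filter thus fixed the direction of the call. Of the 3 members called in that comparison this call was kept by the fewest alternatives, 5 of 13, and adjusted p ran from 0.00368 to 0.133. It was lost under median-ratio scaling (-3.21, adjusted p = 0.0758), with the embryo as a block (-4.34, adjusted p = 0.107), without a filter (adjusted p = 0.119), in the 7-group fit (adjusted p = 0.0861), without embryo 4, 5 or 6 and with the rejected embryos included (-2.94, adjusted p = 0.133). C-out was at 105.3, 3.93, 0.91, 92.1 and 42.99 RPKM, which spanned both. C-in did not differ from C-out beyond this spread (exact permutation p = 0.119).

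*wrm-1* had 0.94, 35.7 and 142.0 RPKM in MS+ (lowest, median and highest), against 49.5, 130.05 and 195.1 RPKM in MS-, and was lower in 5 of 7 embryos (-1.37 ± 0.93, SE, edgeR, adjusted p = 0.757). In D+ it had 1.25, 4.08 and 227.7 RPKM, against 1.26, 37 and 162.5 RPKM in D-. A single library, D+ replicate 1, held 86.4% of the D+ sum. The difference was -0.79 (exact permutation p = 0.203), and without embryo 1 it was -0.99 (exact permutation p = 0.026). Embryo 1 was picked by its *wrm-1* value, so the second p is a description and no support for a difference.

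Its kinase partner *lit-1* was the most widely detected member, over 25 RPKM in 40 of 43 libraries and with no library at 0. It had 44.8, 174.7 and 1015 RPKM in MS+ (lowest, median and highest), against 83.4, 143 and 215.7 RPKM in MS-. The 2 highest of all 43 libraries were MS+ replicates 4 and 7 (1015 and 716.9 RPKM), while 3 MS+ libraries lay below their MS- partners. Of those highest 2, replicate 4 held 2964 RPKM of summed gut markers and replicate 7 held 6.43 RPKM. The change was 1.94 ± 0.72 on the log2 scale (SE, edgeR, unadjusted p = 0.0136, adjusted p = 0.432), and DESeq2 called it (3.51, adjusted p = 0.00764, up to 0.994 over alternatives). With these values, 0 of 5 tested members passed edgeR in MS+ against MS-, 1 had an unadjusted p under 0.05 and DESeq2 called 1, where 0.349% of 3730 genes passed edgeR, 2 higher and 11 lower (0 and 4 under median-ratio scaling). Of the same 3730 genes, 295 had an unadjusted p under 0.05 and DESeq2 called 416. In the D and C series *lit-1* ranged from 3.76 to 509 RPKM with adjusted p of 0.911 or more in each comparison (edgeR).

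*sys-1*, the coactivator of POP-1, was over 25 RPKM in 29 of 43 libraries, and its values in dissected groups split between high and near 0. C-in was at 416.3, 4.10, 94.0, 6.39 and 452.1 RPKM, C-out at 194.4, 5.54, 1.22, 15.4 and 4.81 RPKM and C- at 39.3, 163.8, 158.6, 127.1 and 214.3 RPKM. The split in C-in put 3 libraries with C- and 2 near 0. C-out against C- was -1.59 ± 1.10 (SE, edgeR, adjusted p = 0.64), lower in 4 of 5 embryos. Without embryo 1, whose C-out library held gut markers and was the one high value, it was -4.51 ± 1.00 (SE, edgeR, adjusted p = 0.0341, over alternatives up to 0.826). Embryo 1 was singled out partly by its *sys-1* value, so this adjusted p is a description. No member passed in C-out against C- with all embryos: 0 of 6 by edgeR, 0 at an unadjusted p under 0.05 and 0 by DESeq2. Of all 4079 genes there, 0.0% passed edgeR, 354 had an unadjusted p under 0.05 and DESeq2 called 412.

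In D+ *sys-1* had 1.72, 4.87 and 219.6 RPKM (lowest, median and highest), against 35.7, 131.2 and 194.5 RPKM in D-. The change was -0.86 ± 1.04 on the log2 scale (SE, edgeR, adjusted p = 0.841), lower in 6 of 7 embryos. D+ against D- had 0 of 5 tested members past edgeR's threshold, 0 at an unadjusted p under 0.05 and 0 by DESeq2, where 0.197% of 3039 genes passed edgeR, 0 higher and 6 lower (7 and 1 under median-ratio scaling). Of the same 3039 genes, 209 had an unadjusted p under 0.05 and DESeq2 called 509. MS+ spanned 1.66 to 324.7 RPKM, against 5.76 to 213.6 RPKM in MS-, where 6 of 7 libraries lay over 25 RPKM and replicate 2 was the exception.

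*apr-1*, the APC homologue, was over 25 RPKM in 28 of 43 libraries. It was at 73.8, 1.89, 0.89, 70.8 and 2.74 RPKM in C-in, at 44.7, 2.61, 4.60, 138.4 and 23.6 RPKM in C-out and at 177.9, 106.2, 149.4, 69.98 and 104.2 RPKM in C-. C-in and C-out were each lower than C- in 4 of 5 embryos, and neither change passed (edgeR, adjusted p = 0.579 for C-in and 0.621 for C-out). The groups of the MS and D series overlapped broadly, with 0.76 to 316 RPKM in MS+, 18.2 to 156 RPKM in MS-, 0.27 to 247 RPKM in D+ and 1.10 to 213 RPKM in D-. *apr-1* overlaps *K04G2.9* on the opposite strand. *K04G2.9* had group medians of 2.94 RPKM or less but reached 411.1 RPKM in C-out, 146.4 RPKM in D+ and 124.3 RPKM in MS-. Its part in the *apr-1* values was not tested.

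*pop-1*, the TCF factor through which the pathway acts, was hardly detected. It was over 25 RPKM in 4 of 43 libraries and had no count in 22. The highest values were 98.1 and 34.3 RPKM in MS- (replicates 3 and 1), 34.8 RPKM in MS+ replicate 2 and 29.0 RPKM in C- replicate 5. C- was the only group with counts in all of its libraries, at 1.12, 12.8, 9.64, 29.0 and 2.53 RPKM, against 1 read in all 5 C-in libraries together. C-in lay below C- without overlap (a difference of -0.47 in mean log2(RPKM + 25), exact permutation p = 0.00794, the smallest that 5 against 5 libraries allow), and with embryos paired the exact p was 0.0625, the smallest that 5 pairs allow. Of the 6840 genes that passed the filter over all groups, 10.4% were separated in the same way. *pop-1* was under that filter, so this share does not cover genes detected as weakly as *pop-1*. Of these 10 libraries, only C- replicate 5 was over the detection limit for *pop-1*, which a median of 2316 genes passed in C-in and 4969 in C-. *bar-1*, the beta-catenin known for canonical Wnt signalling in larvae, had no library over 25 RPKM and no count in 34 of 43, with a highest value of 12.1 RPKM in C- replicate 2.

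Permutation tests were used for 24 pairs of a member and a comparison that were under the filter, and 3 of these had p under 0.05: *cwn-1* in MS, *mom-5* in D and *pop-1* in C-in against C-. These p-values were not adjusted. The same unadjusted permutation p was under 0.05 for further pairs that edgeR tested and did not call. They were *cwn-2* (0.00583) and *sys-1* (0.0361) in D+ against D-, and *wrm-1* in MS+ against MS- (0.00932). The rest were *apr-1* in C-in (0.0238) and in C-out (0.0317) and *sys-1* in C-out (0.0397), each against C-. Which test was used for a pair depended on the filter alone.

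The balance of *sys-1* to *pop-1* is thought to set the output of the pathway, and it was compared as the mean log2 ratio of the 2 transcripts, each with 25 RPKM added. The ratio averaged 1.76 ± 1.76 for MS+ against 2.12 ± 1.25 for MS-, and 0.97 ± 1.19 for D+ against 2.30 ± 0.74 for D- (SD, n = 7 each). The C series averaged 2.23 ± 1.96 (C-in), 0.80 ± 1.13 (C-out) and 2.13 ± 0.74 (C-), each with SD and n = 5. None of the 5 comparisons passed after adjustment over them. The nearest were D+ against D- (-1.33, exact permutation p = 0.0373, adjusted p = 0.179) and C-out against C- (-1.33, exact permutation p = 0.0714, adjusted p = 0.179). With *pop-1* mostly at 0, the ratio followed *sys-1*.

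**Figure D4:**
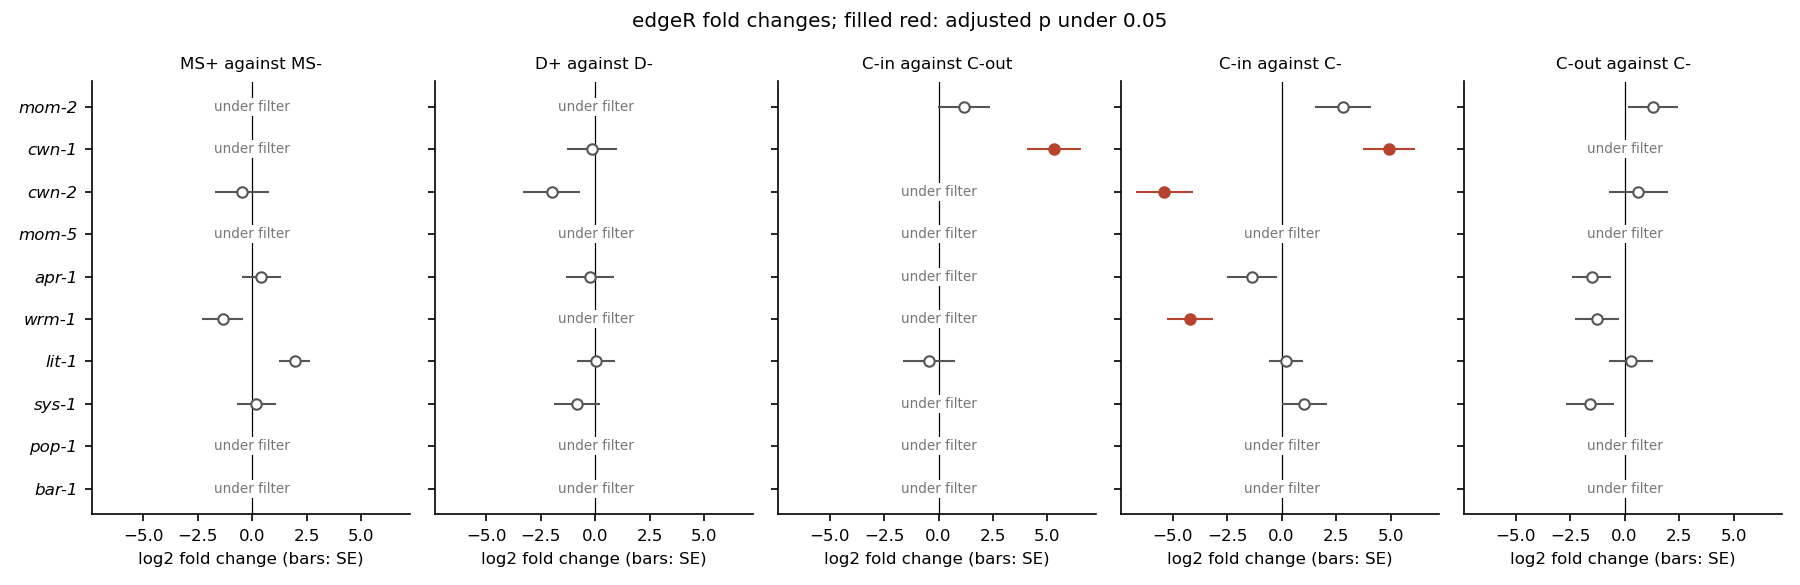
log2 fold change (horizontal axis) of each member in the 5 comparisons, from edgeR, with SE as bars. Filled red points passed an adjusted p of 0.05, open points did not, and members marked as under the filter had too few libraries over 25 RPKM. *cwn-1* passed in both comparisons of C-in, and *cwn-2* and *wrm-1* passed against C-.

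Another 25 genes of the pathway were listed, of which 24 were found by name. In C-in against C-, 14 were tested, 1 rose and 1 fell, where 6.35% of 3572 genes passed edgeR. At an unadjusted p under 0.05 there were 3 of the 14, beside 626 of the 3572 genes. The third was *gsk-3*, which did not pass (edgeR, adjusted p = 0.237). *mig-14*, the Wntless homologue that carries Wnts to the surface of the cells that secrete them, was at 85.9, 700.4, 320.6, 292 and 315.5 RPKM in C-in, against 101.0, 58.4, 55.2, 61.4 and 7 RPKM in C-. It rose by 3.37 ± 0.83 on the log2 scale (SE, edgeR, adjusted p = 0.0265), and embryo 1 was again the one where C-in was not higher. The Frizzled receptor *cfz-2* was at 0, 1.90, 0.49, 1.53 and 0.46 RPKM in C-in, against 71.05, 184.9, 54.1, 212.4 and 61.4 RPKM in C-. It fell by 6.27 ± 1.34 (SE, edgeR, adjusted p = 0.0226), in 5 of 5 embryos without overlap, and 10.4% of 6840 genes were separated in the same way. Like *cwn-2* and *wrm-1*, *cfz-2* passed the filter only through C-, so its direction was fixed by the filter. With the embryo as a block neither passed (adjusted p = 0.0954 for *mig-14* and 0.0603 for *cfz-2*). Over 13 alternatives adjusted p ran from 6.54e-05 to 0.123 for *mig-14* and from 2.59e-05 to 0.0861 for *cfz-2*.

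Of the same genes, 12 were tested in MS+ against MS-, 12 in D+ against D-, 9 in C-in against C-out and 13 in C-out against C-, and 0 passed edgeR in each. At an unadjusted p under 0.05 these comparisons held 0, 1, 0 and 0 of them, and the 1 was the Dishevelled gene *dsh-2* in D+ (2.93 ± 1.03, SE, edgeR, adjusted p = 0.485). Over all genes tested, 295 of 3730, 209 of 3039, 319 of 2208 and 354 of 4079 had an unadjusted p under 0.05 in these comparisons. The median log2 change of the listed genes tested in C-in against C- was 0.61, and that of the 7 members tested was 0.21, beside 0.69 over all genes tested.

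Cell type markers moved with the C-in comparisons. Summed AB markers were 10.8 to 26.2 RPKM in C-in, with none of 6 over 25 RPKM in any library. They were 178 to 1092 RPKM in C- and 13.95 to 3034 RPKM in C-out. Of these markers, *tbx-37* was at 0 in C-in, C-out and C-, and *tbx-38* was at 0 in C-in and C-out. Summed gut markers were 5.87 to 68.9 RPKM in C-in and 6.39 to 1187 RPKM in C-. C- holds every cell that is not a C descendant, and which of its cells carried *cwn-2*, *wrm-1* and *cfz-2* was not tested. Summed body wall muscle markers had medians of 3886 RPKM in D+ (86.1 to 7387 RPKM) and 1547 RPKM in C-in (1258 to 4743 RPKM). *cwn-1* had medians of 17.2 RPKM in D+ (1.23 to 658.5 RPKM) and 856.6 RPKM in C-in (6.45 to 1430 RPKM). C-in was not tested directly against D+, and the difference of their changes did not pass (edgeR, adjusted p = 0.0874).

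The genes whose values over the 43 libraries were most like those of the members that passed a test were found by Pearson correlation of log2(RPKM + 25) among 6840 genes. The libraries share strains, groups and depth, so these values are descriptions. For *cwn-1* they were *WBGene00235292* (r = 0.659), *zmp-1* (0.646) and *F19C7.3* (0.634). The nearest to *mom-2* were *unc-44* (0.625), *ost-1* (0.606) and *cwn-1* (0.604), the only member within the lists given here. *cwn-2* had *F25H5.5* (0.724), *nhr-10* (0.720) and *F15B10.1* (0.702), all with medians of 7.1 RPKM or less in C-in, C-out and D+. *mom-5* had *T27F6.10* (0.727), *F46F3.22* (0.713) and *ceh-27* (0.695). *wrm-1* had *Y37E11AL.3* (0.742), *C01G10.9* (0.694) and *unc-119* (0.694).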

How the data were processed

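Members and gene lists were chosen with earlier results of these data known. Per library, the authors deposited whole-number read counts per gene and the RPKM they derived from them, while the deposited coverage tracks were not used. Per the labels, cDNA came from a SMARTer Ultra Low kit and libraries from Nextera XT, so counts are of amplified reads and limits from counts cover counting error only. The submitters' processing notes name bedtools and ce10. No source used here gives the aligner, the counter or whether strand was used. Embryos marked as rejected entered 1 alternative only.

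Genes over 25 RPKM in a number of libraries no lower than the size of the smaller group were tested with edgeR's quasi-likelihood method on the counts (TMM scaling, Benjamini-Hochberg over all genes tested, threshold 0.05). For members under that filter, mean log2(RPKM + 25) was tested by two-sided exact permutation. Named genes were all members and those of 25 other pathway genes that passed, while further names were chosen after their values were seen, and *imb-4* was not matched. Alternatives were median-ratio scaling, DESeq2, limma on log2(RPKM + 25) or log2(RPKM + 1), no filter, the embryo as a block, 1 fit of all 7 groups, leaving out each embryo, and including rejected ones. The labels match replicate numbers to embryos, which is the pairing behind the block. Deviations from group means correlated on average at 0.0332 (MS), 0.0243 (D) and 0.0291 (C) within embryos, and at -0.00547, -0.00419 and -0.00719 between embryos. The count test was tested on simulated data. Gene overlaps came from the WBcel235 annotation, and no coordinates are given because the builds differ. Versions were R 4.3.3, edgeR 4.0.16, limma 3.58.1, DESeq2 1.42.0, Python 3.11.15 with scipy 1.17.1, numpy 2.4.6 and pandas 2.3.3, and for plots matplotlib 3.10.9.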

Additional observations from a re-analysis of the deposited data

Results flagged for a closer look

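The values of the members within groups of libraries were looked at for single libraries far from the others, by Dixon's test on log2(RPKM + 25). Of 54 groups of values, 10 had such a library. The test's rate of about 1 in 20 by chance holds for normally spread values. Many values here lay near the floor of the scale, so the 10 cannot be set against that rate. In D+ these were *mom-2* in replicate 3 (695.4 RPKM), *cwn-2* in replicate 6 (97.0 RPKM) and *wrm-1* in replicate 1 (227.7 RPKM). In D-, *cwn-1* in replicate 8 was at 722.6 RPKM. In the C series *cwn-1* in C-in replicate 1 was low at 6.45 RPKM, and C-out replicate 1 was high for *mom-5* (60.1 RPKM) and *sys-1* (194.4 RPKM). In the MS series *mom-5* in MS+ replicate 6 (115.4 RPKM) and *pop-1* in MS+ replicate 2 (34.8 RPKM) were high, and *sys-1* in MS- replicate 2 (5.76 RPKM) was low. Libraries of D embryo 8 and C embryo 1 also carried markers against their labels, as did C-in replicate 4 and D+ replicate 4.

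The change of *cwn-1* differed between series in the 7-group fit. MS+ against MS- less D+ against D- was -5.54 on the log2 scale (edgeR, adjusted p = 0.0324), and 14 of 20 alternatives kept it past the threshold. C-in against C- less MS+ against MS- was 10.41 (edgeR, adjusted p = 0.00284), and 19 of 20 alternatives kept it, the exception being the fit without C embryo 2 (9.76, adjusted p = 0.0584). These alternatives were added after seeing the data.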

How the results depend on the processing

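Over all alternatives the members' changes were recomputed 595 times, of which 496 kept direction and side of the threshold, 25 lost a call, 11 gained one and 63 changed sign, none of these for a change that had passed. The causes were not tested. Members called in MS+ against MS- numbered 1 with DESeq2 (*lit-1*), 1 without a filter and 1 in the 7-group fit (*cwn-1* in both), against 0. D+ against D- had 1 in the 7-group fit (*mom-5*), against 0. C-in against C-out had 0 with limma on log2(RPKM + 1), 0 with the embryo (replicate) block and 2 in the 7-group fit (*cwn-1* and *cwn-2*), against 1. C-in against C- had 1 without a filter, 1 with the replicate block, 0 in the 7-group fit, 1 with rejected embryos, 2 with median-ratio scaling, 2 with limma on log2(RPKM + 1) and 4 with DESeq2 (*mom-2* gained), against 3. Among the 7 groups, 5 passed without a filter, against 3. Beside the calls named with the block in the report, the block (embryos as pairs) changed no other call. Leaving out each embryo in turn, the counts ran from 0 to 1 for MS, 0 to 1 for C-in against C-out, 0 to 3 for C-in against C-, 0 to 1 for C-out against C- and 2 to 5 for the 7 groups. Of all genes, the alternatives called 0 to 416 in MS (13 as reported), 0 to 509 in D (6), 74 to 460 in C-in against C-out (125), 0 to 898 in C-in against C- (227, with 0 in the 7-group fit and 1 without embryo 4), 0 to 412 in C-out against C- (0) and 2033 to 8953 among the 7 groups (2263).

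Without a filter and in the 7-group fit, D+ against D- changed sign for *mom-2* (0.72 and 1.06) and for *wrm-1* (0.23 and 0.51). The log2 ratio of *sys-1* to *pop-1* with 1 RPKM added was 0.028 in MS+ against MS- and -2.68 in D+ against D- (exact permutation p = 0.0297). With each embryo left out it ran from -0.58 to 0.057 in MS, -1.77 to -1.06 in D, -0.58 to 0.65 in C-in against C- and -2.03 to -0.94 in C-out against C-. A count of 0 allows 1.02 to 1.38 RPKM of *mom-5* in C-in and 0.739 to 1.59 RPKM in D+, for counting error only.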

Other observations

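The rejected embryos gave few reads of the members in dissected cells, and their values enter no comparison other than the alternative that includes them. In the 2 rejected C embryos (replicates 3 and 7), *cwn-1* was at 164 and 201 RPKM in C-in (24 and 54 reads), against 8.71 and 6.18 RPKM in C-out (8 and 6 reads) and 4.24 and 82.0 RPKM in C- (18 and 216 reads). C-in was the highest library for *cwn-1* in both. *cwn-2* was at 13.3 and 29.1 RPKM in C-in (2 and 8 reads), against 24.1 and 5.56 RPKM in C- (105 and 15 reads). *wrm-1* was at 48.5 and 29.9 RPKM in C-in (15 and 17 reads), against 92.0 and 9.50 RPKM in C- (828 and 53 reads). For both genes C-in was lower than C- in embryo 3 and higher in embryo 7. In the rejected D embryo (replicate 5), *mom-5* had 1 read in D+ and 0 in D-, and *cwn-1* was at 148.5 RPKM in D+ (11 reads), against 54.9 RPKM in D- (149 reads).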
